A study of Mus musculus with 12 samples.

Results

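The lecticans and the hyaluronan matrix of the brain were followed through RNA levels of 9 genes, Acan, Bcan, Ncan, Vcan, Hapln1, Has2, Cd44, Ptprz1 and Cspg5, chosen by gene name from a table of 55862 entries. Of these 9 genes, 8 passed the filter on low values (1 FPKM or more in at least 3 libraries) and were tested among 15747 genes, and Acan did not pass. RNA from brain cells of C57BL/6 mice was sequenced in 12 libraries that form 4 groups of 3. The A-iSC group holds cells derived from astrocytes by 5 days of culture as 3D spheres. The P56-NSC and P0-NSC groups hold progenitor cells isolated from mouse brain, set up as positive controls, and the labels give no incubation time for them. Their names carry P56 and P0, the usual way to write postnatal days, so adult and newborn mice, but no label spells out an age. The AST group holds the astrocytes at day 0, set up as the negative control. The sample labels name no genotype, agent or sorting marker and do not say how the astrocytes were obtained. The deposited title of the series speaks of wild type and Nrl-/- retina, which goes against the brain tissue and cell types of the sample labels, and the labels were followed here. Whether the 3 libraries of each group are from different animals or cultures is not stated either, so p-values cover the spread among libraries alone, and that spread may be technical.

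Lecticans are large secreted chondroitin sulfate proteoglycans. Their amino-terminal domain binds hyaluronan, a long sugar polymer made at the cell surface by hyaluronan synthases, and link proteins hold the lectican and the polymer together, while tenascins bridge the carboxy-terminal ends of neighbouring lecticans. In the adult brain this mesh fills the space between cells and condenses into perineuronal nets around some neurons. Neurocan and the long forms of versican are known as juvenile matrix components, whereas brevican and aggrecan accumulate as the brain matures. Cd44 encodes a cell surface receptor for hyaluronan, and Ptprz1 and Cspg5 encode membrane-spanning chondroitin sulfate proteoglycans of glia and their precursors.

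Whole reads recovered from the deposited values numbered 17077780 to 24452419 per library, and a single read over 1 kb amounted to 0.0343 to 0.0623 FPKM (fragments per kilobase of gene, scaled to a common library size). FPKM values are per length of gene, so levels of different genes can be set side by side. The library A-iSC 3 and the library AST 2 stood apart from the other libraries of their groups in a way that ran with gene length. The Spearman correlation across genes between a library's deviation from its group mean and gene length was 0.328 in A-iSC 3, against -0.281 and -0.233 in A-iSC 1 and A-iSC 2, and -0.450 in AST 2, against 0.361 and 0.385 in AST 1 and AST 3. Genes are not independent replicates in this measure. The groups were also checked against summed FPKM of cell type markers. All 10 astrocyte markers were detected in every group. Their sum was 1407 to 2721 FPKM in A-iSC, 3186 to 3497 in P56-NSC, 295 to 360 in P0-NSC and 171 to 193 in AST. The sum does not rank P0-NSC and AST marker by marker. Of the 10 markers, 5 were higher and 4 lower in P0-NSC than in AST (limma, adjusted p below 0.05), beside 35.9% and 38.3% of all tested genes. Slc1a3 averaged 61.72 FPKM in P0-NSC and 23.25 in AST, and Gfap 60.64 and 29.87. Aqp4, by contrast, averaged 5.596 FPKM in P0-NSC and 30.82 in AST, and Gja1 7.161 and 24.82. The sum of 10 stem and progenitor markers, Nes and Vim among them, was 1583 to 2117 FPKM in A-iSC, 248 to 275 in P56-NSC, 910 to 992 in P0-NSC and 2609 to 3581 in AST. The 10 oligodendrocyte markers summed to 63.2 to 87.1 FPKM in A-iSC, 12274 to 14148 in P56-NSC, 26.45 to 37.45 in P0-NSC with Opalin at 0, and 18.97 to 20.7 in AST with Mobp and Opalin at 0. The 10 microglial markers summed to 3195 to 4277 FPKM in A-iSC, 918 to 1010 in P56-NSC, 150 to 182 in P0-NSC and 261 to 330 in AST. That sum is mostly C1qa, C1qb, C1qc and Ctss, whereas P2ry12 averaged 7.30 FPKM in A-iSC and 60.2 in P56-NSC, and Tmem119 16.78 and 52.2. Red blood cell genes, 5 in number, summed to 0.031 to 0.548 FPKM in A-iSC, 360.0 to 565 in P56-NSC, 163 to 338 in P0-NSC and 0 to 0.143 in AST. In such bulk libraries, fewer cells of a type and less RNA per cell cannot be told apart.

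Some of the genes were lowest in AST and some highest there, while Ncan and Vcan were neither. Bcan, Ptprz1 and Cspg5 were several fold higher in A-iSC, P56-NSC and P0-NSC than in AST, and all 3 peaked in P56-NSC. Cd44 and Has2 were highest in AST. Ncan was highest in A-iSC and P0-NSC, Vcan in P0-NSC and Hapln1 in P56-NSC. Bcan and Ncan did not pass the test between A-iSC and P0-NSC, while Cd44 in A-iSC was between the level of AST and the low levels of P56-NSC and P0-NSC. The plot of FPKM by library shows each gene.

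**Figure D1:**
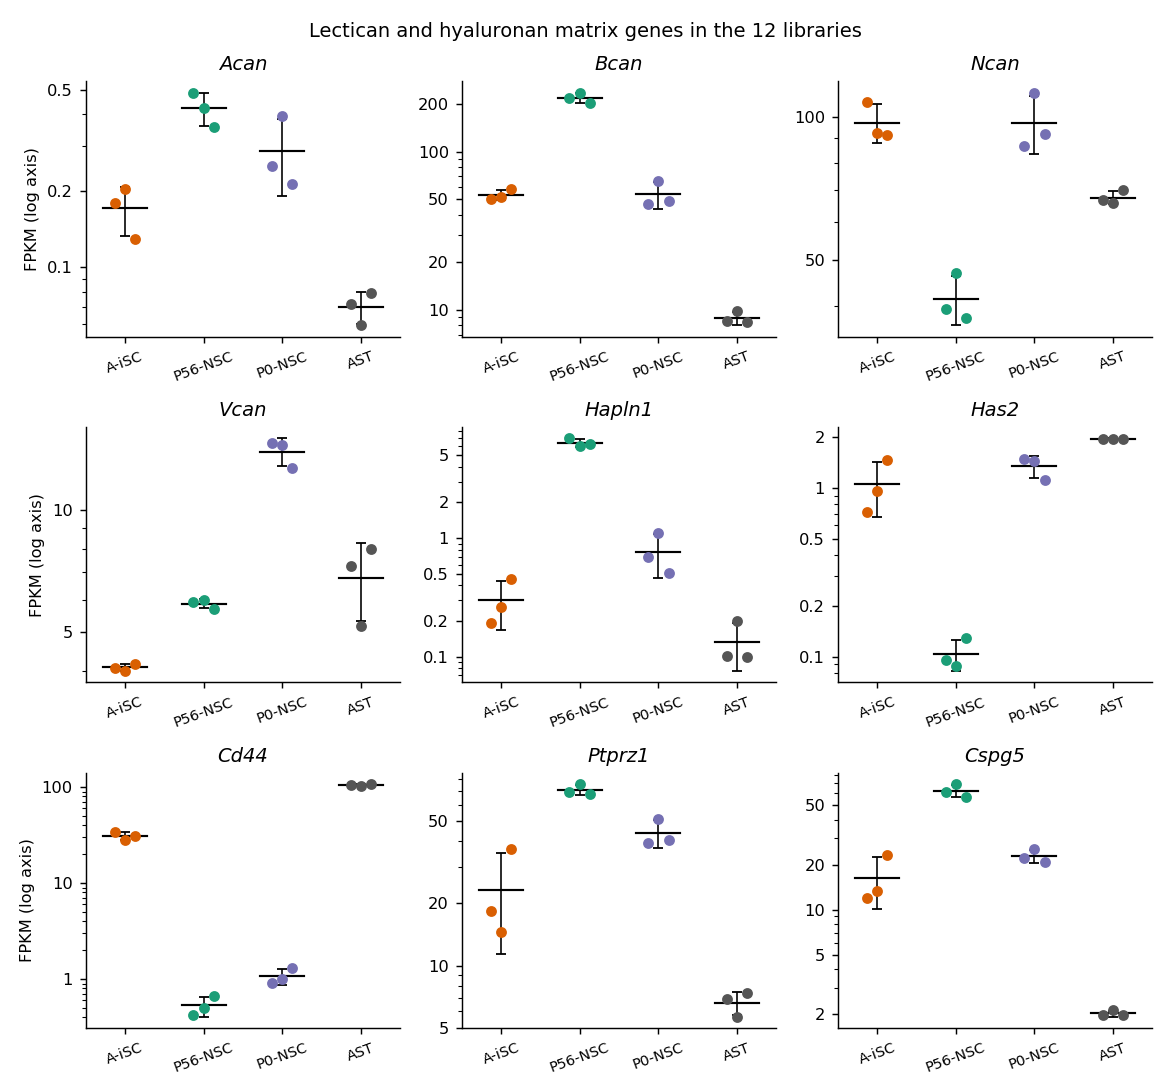
FPKM of the 9 genes in each library on log axes, with a panel per gene and the groups A-iSC, P56-NSC, P0-NSC and AST from left to right. Points are libraries, the line is the group mean and the bar its SD (n = 3). On average Bcan is at 219 FPKM in P56-NSC and 8.92 in AST, and Cd44 at 0.534 FPKM in P56-NSC and 105 in AST.

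Bcan encodes brevican, a brain-specific lectican made mainly by glia, and lies on chromosome 3 (GRCm38, 87987531 to 88000230, minus strand, ENSMUSG00000004892). Its level was 50.6, 51.7 and 58.4 FPKM in the 3 A-iSC libraries, 219, 236 and 203 FPKM in P56-NSC, 46.5, 65.7 and 49.2 FPKM in P0-NSC, and 8.497, 9.91 and 8.36 FPKM in AST. Every library of A-iSC, P56-NSC and P0-NSC was above every AST library, P56-NSC stood above all others, and A-iSC and P0-NSC overlapped. On the log2(FPKM + 1) scale, on which all log2 changes here are given, Bcan was higher in A-iSC than in AST by 2.46 (SE 0.13, limma, adjusted p = 2.16e-08). Its change was 4.47 in P56-NSC against AST (adjusted p = 3.74e-11) and 2.45 in P0-NSC against AST (adjusted p = 8.01e-09). Between A-iSC and P0-NSC the change was 0.0072 with a 95% interval of -0.28 to 0.29 (adjusted p = 0.967), so a difference of up to that size is not excluded. These comparisons with AST share the AST libraries.

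Ncan encodes neurocan, the lectican with the highest level in A-iSC, P0-NSC and AST, on chromosome 8 (70093085 to 70120873, minus strand, ENSMUSG00000002341). It reached 107, 92.5 and 91.3 FPKM in A-iSC, 39.5, 46.8 and 37.65 FPKM in P56-NSC, 86.7, 112 and 92.1 FPKM in P0-NSC, and 66.7, 65.9 and 70.0 FPKM in AST. P56-NSC was thus the low group for Ncan and the high group for Bcan, and no P56-NSC library overlapped another group in either gene. Ncan was higher by 0.51 in A-iSC than in AST (SE 0.12, limma, adjusted p = 0.00302), higher by 0.51 in P0-NSC (adjusted p = 0.00225) and fell by 0.70 in P56-NSC (adjusted p = 0.000205). With AST 1 and AST 3, and with A-iSC 3 as the sole A-iSC library, the change in A-iSC against AST was 0.41. Quantile normalization gave 0.86 in A-iSC and 1.16 in P0-NSC against AST, and scaling by total reads gave 0.795 in P0-NSC. A-iSC and P0-NSC differed by 0.0059 (95% interval -0.26 to 0.27, adjusted p = 0.971).

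RefSeq promoters (250 bases before to 50 after the start, GRCm38.p6) were at hand for 7 of the 9 genes, all but Has2 and Cspg5. The pair of Bcan and Ncan is shown because these 2 lecticans moved in opposite directions in P56-NSC. CG dinucleotides are in capitals. The Bcan promoter is chr3:88000307-88000606 (minus strand) and the Ncan promoter chr8:70120795-70121094 (minus strand), both written 5′ to 3′.
Bcan: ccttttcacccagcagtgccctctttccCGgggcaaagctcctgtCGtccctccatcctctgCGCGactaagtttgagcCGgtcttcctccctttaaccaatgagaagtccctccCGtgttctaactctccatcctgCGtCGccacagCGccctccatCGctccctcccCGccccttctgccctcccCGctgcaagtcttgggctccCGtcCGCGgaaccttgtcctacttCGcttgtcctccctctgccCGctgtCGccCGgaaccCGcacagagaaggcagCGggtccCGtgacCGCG
Ncan: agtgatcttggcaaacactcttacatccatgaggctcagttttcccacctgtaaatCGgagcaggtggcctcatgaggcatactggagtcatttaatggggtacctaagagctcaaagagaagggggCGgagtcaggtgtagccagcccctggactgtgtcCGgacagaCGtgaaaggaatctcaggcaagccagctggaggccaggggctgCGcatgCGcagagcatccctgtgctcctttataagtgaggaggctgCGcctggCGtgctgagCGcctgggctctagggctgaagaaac
The Bcan window has 24 CG dinucleotides and 64% G + C, the Ncan window 9 and 56.7%, and the median over 32851 promoters of the same table is 7 and 52.7%. The letters TATAAA, searched on both strands, occur in the Ncan window and in no other window of the 7 genes, and in 13.6% of all promoters. A match is a description of the letters and not of a working site.

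Vcan encodes versican, the most widely expressed lectican, on chromosome 13 (89655312 to 89742509, minus strand, ENSMUSG00000021614). Its FPKM values were 4.08, 4.01 and 4.16 in A-iSC, 5.93, 5.98 and 5.69 in P56-NSC, 14.6, 14.4 and 12.7 in P0-NSC, and 7.27, 5.15 and 7.99 in AST. P0-NSC was above all other groups and A-iSC below all others, while the P56-NSC values fell inside the AST range. Vcan fell by 0.60 in A-iSC against AST (SE 0.12, limma, adjusted p = 0.00131) and was higher by 0.95 in P0-NSC (adjusted p = 2.09e-05). The P56-NSC change was -0.17 (95% interval -0.44 to 0.10, adjusted p = 0.243), and without AST 2, the lowest AST library at 0.676 times the mean of AST 1 and AST 3, it was -0.33 (adjusted p = 0.00593). With A-iSC 1 and A-iSC 2, and with AST 2 as the sole AST library, the A-iSC change was -0.29. A-iSC was lower than P0-NSC by a log2 change of -1.55 (adjusted p = 3.65e-07) and lower than P56-NSC by -0.43 (adjusted p = 0.00899), and that second difference was 0.029 when libraries were scaled by total reads.

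Acan encodes aggrecan, the lectican best known from cartilage and from perineuronal nets, on chromosome 7 (79053483 to 79115099, plus strand, ENSMUSG00000030607). It was scarce everywhere, with 0.179, 0.203 and 0.130 FPKM in A-iSC, 0.486, 0.425 and 0.358 FPKM in P56-NSC, 0.252, 0.395 and 0.214 FPKM in P0-NSC, and 0.0719, 0.0594 and 0.0793 FPKM in AST. These values rest on 26 to 36 reads in A-iSC, 44 to 63 in P56-NSC, 43 to 86 in P0-NSC and 9 to 11 in AST. All libraries of the other 3 groups were above all AST libraries. When every gene was tested without the filter, limma gave a log2 change of 0.13 in A-iSC against AST (adjusted p = 0.129), 0.41 in P56-NSC (adjusted p = 0.00014) and 0.26 in P0-NSC (adjusted p = 0.00306). On the recovered reads without a filter, voom gave 1.21 (adjusted p = 0.0316), 2.54 (adjusted p = 4.75e-05) and 1.95 (adjusted p = 0.000518) in the same order of comparisons. The 4 markers of parvalbumin neurons, the cells best known for aggrecan nets, summed to 25.3 to 32.8 FPKM in A-iSC, 12.55 to 26.9 in P56-NSC, 7.93 to 8.84 in P0-NSC and 1.17 to 1.495 in AST. Pvalb alone made up most of the A-iSC and P56-NSC sums, with a mean of 26.5 FPKM in A-iSC, 15.5 in P56-NSC, 0.0226 in P0-NSC and 0.324 in AST, while Kcnc1, Kcnc2 and Syt2 were highest in P0-NSC. The part of such cells in the Acan level was not tested.

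The sum of the 4 lecticans was 155 ± 6.96 FPKM in A-iSC, 267 ± 21.6 in P56-NSC, 165 ± 24.3 in P0-NSC and 83.3 ± 2.76 in AST (SD, n = 3 each). Brevican made up 34.6 ± 3.36% of that sum in A-iSC, 82.2 ± 0.529% in P56-NSC, 32.5 ± 1.44% in P0-NSC and 10.7 ± 1.33% in AST. Neurocan made up 62.6 ± 3.45% in A-iSC, 15.5 ± 0.648% in P56-NSC, 58.8 ± 0.801% in P0-NSC and 81.05 ± 0.27% in AST. Brevican was thus the main lectican in P56-NSC and neurocan in the other 3 groups, with A-iSC and P0-NSC between P56-NSC and AST in both shares. Versican made up 2.64 ± 0.107% in A-iSC, 2.21 ± 0.125% in P56-NSC, 8.53 ± 1.23% in P0-NSC and 8.14 ± 1.56% in AST. Aggrecan made up at most 0.205% of the sum in any library.

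The ratio of Bcan to Ncan, which does not depend on how libraries are scaled, was 0.471, 0.559 and 0.639 in A-iSC, 5.54, 5.05 and 5.385 in P56-NSC, 0.536, 0.586 and 0.534 in P0-NSC, and 0.127, 0.1504 and 0.1195 in AST. The 3 P56-NSC libraries were the only ones above 1, and A-iSC and P0-NSC overlapped. An exact permutation test of log ratios gave a two-sided p of 0.1 for each of the 5 comparisons other than A-iSC against P0-NSC, which is the smallest p that 3 against 3 libraries allow, and a p of 1 for A-iSC against P0-NSC. The mean log2 ratio differed by 2.07 between A-iSC and AST, by 5.34 between P56-NSC and AST and by 2.06 between P0-NSC and AST. The bar plot of lectican shares shows the make-up of each library.

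**Figure D2:**
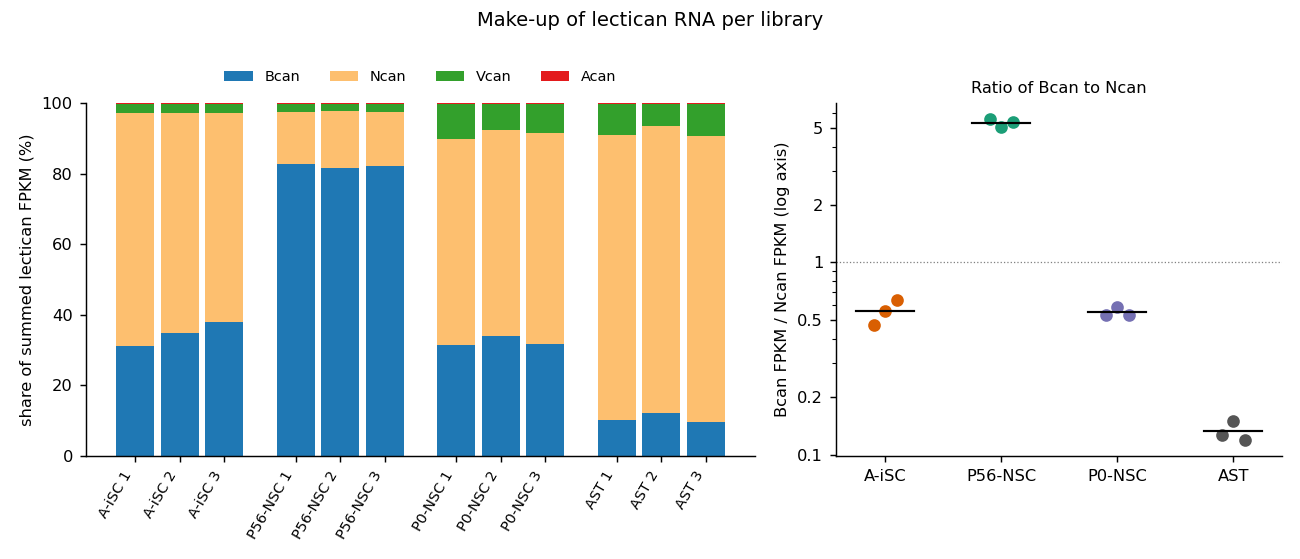
Left, share of each lectican in the summed FPKM of the 4 lecticans, a bar per library; the Acan share, at most 0.205%, is too thin to see. Right, the ratio of Bcan to Ncan FPKM on a log axis, with points for libraries, lines for group means and a dotted line at 1; only P56-NSC is above the dotted line, with a mean of 5.32.

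Hapln1 encodes a link protein that locks lecticans onto hyaluronan and is known as a component of perineuronal nets. It lies on chromosome 13 (89539796 to 89611652, plus strand, ENSMUSG00000021613). Its FPKM was 0.193, 0.264 and 0.455 in A-iSC, 6.93, 6.02 and 6.19 in P56-NSC, 0.689, 1.11 and 0.504 in P0-NSC, and 0.101, 0.201 and 0.1004 in AST, the last from 10, 24 and 11 reads. Only the P56-NSC libraries and P0-NSC 2 reached 1 FPKM, so Hapln1 passed the filter through its high group and had to differ between groups. Its log2 change is therefore given as a description where P56-NSC is one of the groups, and was 2.70 in P56-NSC against AST (5.58 by voom on the recovered reads). It was 0.63 in P0-NSC against AST (limma, adjusted p = 0.000658, and 2.47 by voom) and 0.20 in A-iSC against AST (95% interval -0.07 to 0.47, adjusted p = 0.195). With a pseudocount of 0.1 the A-iSC change was 0.76 and passed (adjusted p = 0.0432), and under quantile normalization the P0-NSC change was 0.26 and did not (adjusted p = 0.0879). A-iSC was below P0-NSC by a log2 change of -0.43 (adjusted p = 0.00918), a call that ended under quantile normalization, at -0.24 (adjusted p = 0.113). With A-iSC 3 as the sole A-iSC library the change was -0.27.

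Each of the 4 link protein genes of the mouse lies beside a lectican gene, with 0 protein-coding genes between them in the annotation of the same build. The gap is 43659 bases between Hapln1 and Vcan, 21519 between Hapln2 and Bcan, 2222 between Hapln4 and Ncan, and 2 between the facing ends of Hapln3 and Acan. Hapln2, the link protein of nodes of Ranvier, was at 0.0837, 0.0710 and 0 FPKM in A-iSC, 81.2, 68.4 and 89.5 in P56-NSC, 0.221, 0.217 and 0.199 in P0-NSC, and 0.0252, 0.0416 and 0.0227 in AST. Its neighbour Bcan, by contrast, was at 46.5 to 65.7 FPKM in A-iSC and P0-NSC, where Hapln2 was at 0 to 0.221 FPKM. The oligodendrocyte markers were at 12274 to 14148 FPKM in the same P56-NSC libraries and at most 87.1 FPKM elsewhere, and their part in the level of Hapln2, Hapln1 and Bcan was not tested.

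Hapln4, a link protein that pairs with brevican at inhibitory synapses, was at 1.29, 1.67 and 0.970 FPKM in A-iSC, 3.20, 3.70 and 3.11 in P56-NSC, 0.301, 0.438 and 0.305 in P0-NSC, and 3.496, 3.03 and 3.77 in AST. It fell in A-iSC (log2 change -0.95, limma, adjusted p = 2.73e-05) and in P0-NSC (-1.72, adjusted p = 7.26e-08), the same 2 groups in which its neighbour Ncan was called higher. Hapln3, at 0.127 to 0.223 FPKM in A-iSC, 0.705 to 1.10 in P56-NSC, 1.11 to 1.535 in P0-NSC and 0.357 to 0.491 in AST, ends 2 bases from the end of Acan, on the other strand and without overlap in the annotation. The plot of link protein genes beside their neighbours shows the 4 pairs.

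**Figure D3:**
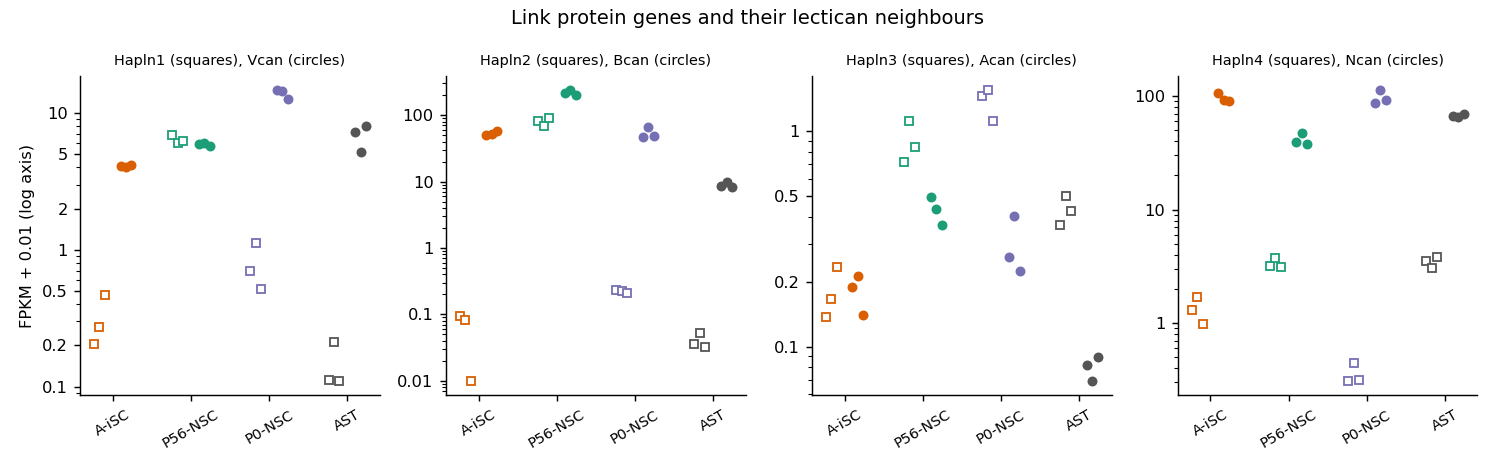
FPKM plus 0.01 on log axes for each link protein gene (open squares) and the lectican gene beside it (filled circles), a symbol per library and the groups A-iSC, P56-NSC, P0-NSC and AST from left to right. Hapln2 and Bcan are both at their highest in P56-NSC, while in A-iSC and P0-NSC Bcan is at 46.5 to 65.7 FPKM and Hapln2 at 0 to 0.221.

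Has2 encodes the main hyaluronan synthase of most tissues and lies on chromosome 15 (56665627 to 56694539, minus strand, ENSMUSG00000022367). It was at 0.726, 0.963 and 1.47 FPKM in A-iSC, 0.0952, 0.0882 and 0.129 FPKM in P56-NSC (7, 6 and 9 reads), 1.496, 1.45 and 1.12 FPKM in P0-NSC, and 1.96, 1.97 and 1.97 FPKM in AST. AST was the highest group and P56-NSC by far the lowest, without overlap, while A-iSC overlapped P0-NSC. Has2 fell by 1.43 in P56-NSC against AST on the log2(FPKM + 1) scale (limma, adjusted p = 3.67e-07), by 0.55 in A-iSC (adjusted p = 0.00195) and by 0.33 in P0-NSC (adjusted p = 0.0236). In FPKM itself, the P56-NSC mean was 0.053 of the AST mean. The A-iSC change was -0.26 with AST 1 and AST 3, and with A-iSC 3 as the sole A-iSC library. On the recovered reads voom gave larger changes, of -4.17 in P56-NSC and -0.92 in A-iSC. The P0-NSC call ended in 8 of 27 alternative settings, among them the test without a filter (adjusted p = 0.0551) and the fits without P0-NSC 3 (adjusted p = 0.0985) or any single AST library (adjusted p from 0.0515 to 0.0545). A-iSC and P0-NSC differed by a log2 change of -0.21 (adjusted p = 0.138), which was -0.35 and called without A-iSC 3 (adjusted p = 0.00638). Has2os, an antisense RNA that overlaps Has2, averaged 0.654 FPKM in A-iSC, 0.903 in P56-NSC, 0.457 in P0-NSC and 0.0930 in AST, and without strand the reads of the shared bases cannot be told apart.

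The other hyaluronan synthases were near the floor. Has1 was at 0.0165 to 0.0372 FPKM in A-iSC, 0 to 0.0689 in P56-NSC, 0.114 to 0.153 in P0-NSC and 0.0437 to 0.132 in AST. Has3 was at 0.0622 to 0.132 FPKM in A-iSC, 0.0781 to 0.1535 in P56-NSC, 0.250 to 0.404 in P0-NSC and 0.0467 to 0.127 in AST. Neither passed the filter. Has2 was therefore the synthase with the highest FPKM in all libraries of A-iSC, P0-NSC and AST, while in P56-NSC the 3 synthases were all at or below 0.1535 FPKM.

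Cd44 lies on chromosome 2 (102811141 to 102901665, minus strand, ENSMUSG00000005087). Its FPKM was 34.5, 28.3 and 30.96 in A-iSC, 0.425, 0.506 and 0.672 in P56-NSC, 0.910, 0.999 and 1.31 in P0-NSC, and 104, 102 and 107 in AST. The 4 groups did not overlap, and the order was AST, A-iSC, P0-NSC and P56-NSC. The AST mean was 3.34 times the A-iSC mean, 97.5 times the P0-NSC mean and 196 times the P56-NSC mean. Cd44 fell by 1.71 in A-iSC (SE 0.10, limma, adjusted p = 5.66e-08), by 6.11 in P56-NSC (adjusted p = 5.35e-13) and by 5.67 in P0-NSC (adjusted p = 3.61e-12), each against AST on the log2 scale. A-iSC was higher than P56-NSC by 4.39 (adjusted p = 1.19e-11) and higher than P0-NSC by 3.96 (adjusted p = 7.17e-11), and P56-NSC was lower than P0-NSC by a log2 change of -0.43 (adjusted p = 0.00258, and -1.02 by voom). The 10 markers of fibroblasts and mural cells summed to 34.8 to 67.7 FPKM in A-iSC, 16.81 to 32.4 in P56-NSC, 171 to 175 in P0-NSC and 1892 to 2287 in AST. The AST sum was nearly all Acta2, at 1848 FPKM, followed by Col1a1 at 158 FPKM. Acta2, Col1a1 and Tagln (13.3 FPKM in AST) were highest in AST. The rest of the list, Col3a1, Col1a2, Pdgfrb, Rgs5, Kcnj8, Dcn and Lum, was highest in P0-NSC. The summed microglial markers were highest in A-iSC, at 3195 to 4277 FPKM. The part of such cells in the Cd44 level was not tested.

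The Cd44 promoter, chr2:102901616-102901915 (minus strand), is shown beside that of Ptprz1, chr6:22875252-22875551 (plus strand), because the 2 genes had the most opposite patterns of any pair here. CG dinucleotides are again in capitals.
Cd44: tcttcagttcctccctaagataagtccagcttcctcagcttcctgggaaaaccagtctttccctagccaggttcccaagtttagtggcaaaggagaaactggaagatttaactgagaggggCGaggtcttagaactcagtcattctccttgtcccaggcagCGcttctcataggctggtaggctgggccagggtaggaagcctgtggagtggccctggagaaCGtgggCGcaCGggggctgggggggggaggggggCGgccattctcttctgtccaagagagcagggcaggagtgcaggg
Ptprz1: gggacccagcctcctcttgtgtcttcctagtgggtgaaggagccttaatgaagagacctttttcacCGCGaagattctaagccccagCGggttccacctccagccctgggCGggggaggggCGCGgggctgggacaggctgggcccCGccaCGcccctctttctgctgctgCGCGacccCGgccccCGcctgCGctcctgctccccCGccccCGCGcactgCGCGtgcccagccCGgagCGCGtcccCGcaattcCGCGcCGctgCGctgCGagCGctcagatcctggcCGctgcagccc
The Cd44 window holds 6 CG dinucleotides at 58% G + C and the Ptprz1 window 29 at 71.7%. Of the letters searched on both strands, TGANTCA (the AP-1 site) is in 0 of the 7 windows and in 7.81% of all promoters. The SOX cores ACAAAG and ACAATG are in 0 of 7 windows and in 18.7% and 12.6% of all promoters, TTGGC (an NFI site's core) is in those of Acan and Ncan and in 46.7% of all, and GTGGGAA (the RBPJ core) is in those of Ncan and Vcan and in 6.38% of all.

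Ptprz1 encodes a receptor tyrosine phosphatase whose extracellular part, also shed as phosphacan, carries chondroitin sulfate and binds pleiotrophin, midkine, tenascins and contactin. It lies on chromosome 6 (22875502 to 23052916, plus strand, ENSMUSG00000068748). Levels were 18.4, 14.5 and 36.7 FPKM in A-iSC, 69.3, 75.6 and 68.1 FPKM in P56-NSC, 39.2, 51.5 and 40.4 FPKM in P0-NSC, and 6.86, 5.66 and 7.33 FPKM in AST. P56-NSC was the highest group, then P0-NSC, A-iSC and AST, with no overlap, but A-iSC 3 came close to the lowest P0-NSC library. Ptprz1 was higher than in AST by 1.57 in A-iSC (SE 0.25, limma, adjusted p = 0.000227), by 3.25 in P56-NSC (adjusted p = 2e-07) and by 2.55 in P0-NSC (adjusted p = 2.03e-06). A-iSC 3 was at 2.23 times the mean of A-iSC 1 and A-iSC 2, against a median of 1.127 over tested genes of 4 kb or more and 0.794 over those under 2 kb. Without A-iSC 3 and AST 2 the A-iSC change against AST was 1.10 (adjusted p = 6.48e-05). A-iSC was lower than P0-NSC by a log2 change of -0.98 (adjusted p = 0.00467). That change was -1.35 without A-iSC 3 and AST 2 (adjusted p = 4.83e-06) and -0.24 with A-iSC 3 as the sole A-iSC library. The change in P56-NSC against P0-NSC, 0.70 (adjusted p = 0.0284), lost its call in 8 of 28 settings, among them the fits without any 1 of P56-NSC 1, P56-NSC 2, P56-NSC 3, P0-NSC 1 or P0-NSC 3 (adjusted p from 0.0522 to 0.0861), and was 0.075 when libraries were scaled by total reads (adjusted p = 0.8).

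Cspg5 encodes neuroglycan C, a membrane-spanning chondroitin sulfate proteoglycan with a growth-factor-like domain, on chromosome 9 (110243783 to 110262576, plus strand, ENSMUSG00000032482). It was at 12.02, 13.4 and 23.3 FPKM in A-iSC, 61.65, 69.1 and 57.1 FPKM in P56-NSC, 22.1, 25.35 and 20.8 FPKM in P0-NSC, and 1.97, 2.12 and 1.96 FPKM in AST. Every library of the other groups was above every AST library, P56-NSC was above the rest, and A-iSC 3 fell within the P0-NSC range. Against AST, Cspg5 was higher by 2.46 in A-iSC (SE 0.19, limma, adjusted p = 4.5e-07), by 4.39 in P56-NSC (adjusted p = 8.78e-10) and by 2.97 in P0-NSC (adjusted p = 3.6e-08). Between A-iSC and P0-NSC it fell by 0.51 (adjusted p = 0.0306), a call that ended without A-iSC 1 (-0.34, adjusted p = 0.132), without A-iSC 2 (-0.41, adjusted p = 0.109), without P0-NSC 1 (-0.53, adjusted p = 0.0588) and without P0-NSC 2 (-0.44, adjusted p = 0.104). Without A-iSC 3 the change was -0.79, and with A-iSC 3 as the sole A-iSC library it was 0.037.

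The 8 markers of oligodendrocyte precursors, cells in which Ptprz1 and Cspg5 are known to be high, summed to 242 to 267 FPKM in A-iSC, 584 to 589 in P56-NSC, 59.75 to 92.8 in P0-NSC and 111 to 134 in AST, with Neu4 at 0 in AST. Olig1, and in A-iSC also C1ql1, carried most of these sums. Pdgfra, Sox10 and Gpr17 ran the other way between P0-NSC and AST, with 8.34, 2.94 and 0.622 FPKM in P0-NSC and 0.373, 0.279 and 0.0177 FPKM in AST. Of the 8 markers, 3 were called higher and 3 lower in P0-NSC than in AST, near the 35.9% and 38.3% of all genes. The part of such cells in these levels was not tested.

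Ptn, which encodes pleiotrophin, a ligand that Ptprz1 binds through its sugar chains, was at 142, 124 and 269.99 FPKM in A-iSC, 247, 230.04 and 247 in P56-NSC, 219, 262 and 235 in P0-NSC, and 43.6, 52.7 and 45.4 in AST. It was higher than in AST by 1.82 in A-iSC (limma, adjusted p = 2.99e-05), by 2.33 in P56-NSC (adjusted p = 1.55e-06) and by 2.31 in P0-NSC (adjusted p = 1.85e-06). Mdk, which encodes the related ligand midkine, was at 22.6, 23.7 and 15.7 FPKM in A-iSC, 44.6, 51.6 and 49.8 in P56-NSC, 103, 73.8 and 86.4 in P0-NSC, and 5.90, 10.3 and 5.45 in AST. Both ligands and their receptor were thus at their lowest in AST.

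Tnr encodes tenascin-R, which links lecticans in mature nets, and Tnc encodes tenascin-C of the immature and injured brain. Tnr was at 2.12, 2.29 and 5.09 FPKM in A-iSC, 15.7, 17.6 and 15.6 in P56-NSC, 3.54, 3.88 and 3.77 in P0-NSC, and 0.969, 0.732 and 1.11 in AST. Tnc was at 31.8, 30.9 and 24.9 FPKM in A-iSC, 0.259, 0.305 and 0.383 in P56-NSC, 71.5, 69.8 and 68.8 in P0-NSC, and 357, 319 and 366 in AST. The 2 tenascins thus ran in opposite directions between P56-NSC and AST, as Bcan and Cd44 did. Tnr changed by 1.04 in A-iSC (limma, adjusted p = 0.000918), by 3.16 in P56-NSC (adjusted p = 3.38e-08) and by 1.29 in P0-NSC (adjusted p = 0.000107), each against AST. Tnc changed by -3.53 in A-iSC (adjusted p = 4.17e-10), by -8.05 in P56-NSC (adjusted p = 6.45e-14) and by -2.29 in P0-NSC (adjusted p = 1.65e-09). Over the 4 link proteins and 2 tenascins, 1 was called higher and 3 lower in A-iSC than in AST, where 28.1% of all tested genes were higher and 30.8% lower. P0-NSC had 4 higher and 2 lower, beside 35.9% and 38.3% of all genes, and P56-NSC had 4 and 1. Hapln3 passed the filter through P0-NSC, and Hapln1 and Hapln2 through P56-NSC, so nothing is read from either count.

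Counts over the members are given without Hapln1, which passed the filter through its high group, so that 7 tested genes remain. In A-iSC against AST, the comparison that asks what changed as astrocytes were kept as spheres, all 7 were called, and 58.9% of all tested genes were. At 2-fold or more, 4 were called (18.8% of all genes). Bcan, Ncan, Ptprz1 and Cspg5 were the 4 called higher (28.1% of all genes were) and Vcan, Has2 and Cd44 the 3 called lower (30.8% of all genes). The median absolute log2 change was 1.57 over the 7 genes and 0.44 over all tested genes. In P56-NSC against AST, a positive control against the negative control, 6 of 7 were called, beside 74.1% of all genes, and 5 at 2-fold or more, beside 37.5%. Bcan, Ptprz1 and Cspg5 were the 3 called higher (37.1% of all genes) and Ncan, Has2 and Cd44 the 3 called lower (37% of all genes), with a median absolute change of 3.25 over the 7 genes and 0.72 over all genes. In P0-NSC against AST, all 7 were called, beside 74.2% of all genes, and 4 at 2-fold or more, beside 35.9%. Vcan, Bcan, Ncan, Ptprz1 and Cspg5 were the 5 called higher (35.9% of all genes) and Has2 and Cd44 the 2 called lower (38.3% of all genes), with a median absolute change of 2.45 over the 7 genes and 0.72 over all genes. With so many genes called in each comparison, a count of called members says little by itself. The members were chosen with earlier results of these data known, and the log2(FPKM + 1) scale understates changes of low genes. The medians, here and for the other comparisons, are therefore a description and no test. The plot of changes against AST sets the 3 comparisons, which share their AST libraries, side by side.

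**Figure D4:**
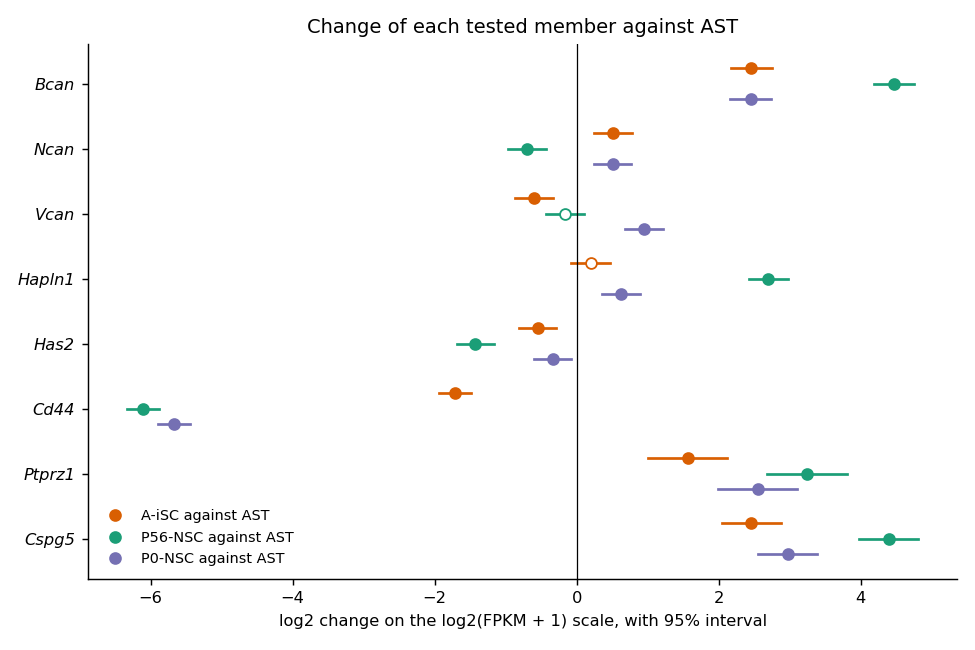
Log2 change of each tested gene against AST on the log2(FPKM + 1) scale for A-iSC, P56-NSC and P0-NSC, with the 95% interval from limma. Filled points have an adjusted p below 0.05 and open points do not; Hapln1 passed the filter through P56-NSC, so its point there is no test. Bcan, Ptprz1 and Cspg5 lie right of 0 and Cd44 and Has2 left of 0 in all 3 comparisons, while Ncan lies left of 0 in P56-NSC alone and Vcan right of 0 in P0-NSC alone.

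Between A-iSC and P56-NSC, all 7 were called, beside 62.9% of all genes, and 5 at 2-fold or more, beside 24.5%. The 3 called higher in A-iSC were Ncan (1.22), Has2 (0.88, and 3.24 by voom) and Cd44 (4.39), beside 31.5% of all genes. The 4 called lower were Bcan (-2.01), Vcan (-0.43), Ptprz1 (-1.68, and -0.93 with A-iSC 3 as the sole A-iSC library) and Cspg5 (-1.93), beside 31.3% of all genes. Between A-iSC and P0-NSC, 4 of 7 were called, beside 67.3% of all genes, and 2 at 2-fold or more, beside 27.8%. Cd44 was the 1 called higher in A-iSC (32.6% of all genes), and Vcan, Ptprz1 and Cspg5 were the 3 called lower (34.7% of all genes). Bcan, Ncan and Has2 were not called, and the interval of the Has2 change was -0.47 to 0.05. The median absolute log2 change was 0.51 over the 7 genes and 0.56 over all genes, the only comparison in which that of the 7 genes was the smaller.

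Between P56-NSC and P0-NSC, all 7 were called, beside 69.2% of all genes, and 5 at 2-fold or more, beside 28.7%. The 3 called higher in P56-NSC were Bcan (2.02), Cspg5 (1.42, and 0.81 under total-read scaling) and Ptprz1 (0.70), beside 35.3% of all genes. The 4 called lower were Ncan (-1.21, and -1.83 under total-read scaling), Vcan (-1.12), Has2 (-1.09, and -3.61 by voom) and Cd44 (-0.43, and -0.68 under total-read scaling), beside 33.9% of all genes. The lecticans thus split by kind, with brevican higher in P56-NSC and neurocan and versican higher in P0-NSC. Scaling by total reads moved the direction of calls over all genes. Among called genes, the higher ones made up 47.7% (61.1% under that scaling) in A-iSC against AST, 50.1% (38.1%) in P56-NSC against AST and 48.4% (59%) in P0-NSC against AST. They made up 50.1% (74.1%) in A-iSC against P56-NSC and 51% (26.4%) in P56-NSC against P0-NSC.

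Other genes of the same biology were read from 9 lists. Some of their members are genes already described, such as Has2, Hapln1 and Cd44. Against AST, the share of all tested genes called higher and lower was 28.1% and 30.8% for A-iSC, 37.1% and 37% for P56-NSC, then 35.9% and 38.3% for P0-NSC, and the median log2 change over all genes was 0, -0.0042 and -0.037. Relative to AST, 0 of 7 tested genes for hyaluronan synthesis and its precursors were called higher and 6 lower in A-iSC, whereas P56-NSC had 0 and 4, and P0-NSC 1 and 5. The median log2 change over that list was -0.50 in A-iSC, -0.375 in P56-NSC and -0.48 in P0-NSC. Ugdh, which makes the glucuronic acid donor, averaged 14.0 ± 2.22 FPKM in A-iSC, 5.17 ± 0.347 in P56-NSC, 5.82 ± 0.585 in P0-NSC and 24.2 ± 1.07 in AST (SD, n = 3 each). Between P56-NSC and P0-NSC, 2 genes of that list were called higher and 2 lower, and 1 and 5 when libraries were scaled by total reads. In the breakdown list, relative to AST, A-iSC had 3 of 7 tested genes called higher and 4 lower (3 and 2 under total-read scaling), P56-NSC 1 and 5, and P0-NSC 1 and 6, with medians of -0.39, -0.97 and -1.35. Cemip, which encodes a protein of hyaluronan breakdown, averaged 2.41 ± 0.354 FPKM in A-iSC, 0.117 ± 0.0224 in P56-NSC, 0.330 ± 0.0657 in P0-NSC and 25.8 ± 9.84 in AST.

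Among 12 tested receptors and binding proteins of hyaluronan, Cd44 included, relative to AST, A-iSC had 4 called higher and 4 lower, P56-NSC 6 and 4 (4 and 5 under total-read scaling), and P0-NSC 4 and 7. The medians were -0.11, 0.13 and -0.80, and in A-iSC the counts are near the shares of all genes, 28.1% and 30.8%. Lyve1 and Itih2 passed the filter through P0-NSC, so nothing is read from the P0-NSC count. Itih3, a heavy chain that is attached to hyaluronan, averaged 28.45 ± 6.96 FPKM in A-iSC, 79.5 ± 20.9 in P56-NSC, 1.35 ± 0.266 in P0-NSC and 0.690 ± 0.132 in AST. Its log2 change was 4.10 in A-iSC (limma, adjusted p = 1.35e-08) and 5.54 in P56-NSC (adjusted p = 2.45e-10), each against AST. Tnfaip6, the enzyme that transfers such heavy chains, averaged 3.80 ± 0.227 FPKM in A-iSC, 28.4 ± 4.96 in P56-NSC, 0.933 ± 0.145 in P0-NSC and 7.14 ± 1.26 in AST. Stab1, a scavenger receptor of macrophages and vessel lining, averaged 25.03 ± 3.72 FPKM in A-iSC, 4.46 ± 0.356 in P56-NSC, 5.72 ± 0.377 in P0-NSC and 3.17 ± 0.539 in AST. The summed microglial markers were likewise highest in A-iSC, at 3195 to 4277 FPKM, though P2ry12 and Tmem119 of that list were highest in P56-NSC, and the part of such cells in the Stab1 level was not tested. Lyve1, a receptor of lymphatic vessels and macrophages, reached 8.13 ± 2.53 FPKM in P0-NSC and averaged at most 0.440 FPKM in the other groups.

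Of 11 tested genes whose enzymes build chondroitin chains, A-iSC had 1 called higher and 7 lower than AST, P56-NSC 2 and 7, and P0-NSC 0 and 8, beside 30.8%, 37% and 38.3% of all genes called lower. The medians were -0.61, -0.42 and -0.98. Chsy1, a chondroitin synthase, averaged 10.2 ± 2.47 FPKM in A-iSC, 6.78 ± 0.114 in P56-NSC, 13.9 ± 1.07 in P0-NSC and 32.95 ± 2.35 in AST. Csgalnact1, which adds the sugar that commits a chain to chondroitin, averaged 1.59 ± 0.704 FPKM in A-iSC, 6.57 ± 0.363 in P56-NSC, 1.28 ± 0.0688 in P0-NSC and 1.499 ± 0.283 in AST. Between P56-NSC and P0-NSC, 4 genes of this list were called higher and 3 lower, and 3 and 7 when libraries were scaled by total reads. Of 12 tested sulfation and epimerization genes, A-iSC had 3 called higher and 5 lower than AST (4 and 4 under total-read scaling), P56-NSC 3 and 6, and P0-NSC 3 and 8, with medians of -0.13, -0.16 and -0.66. Papss2, which makes the sulfate donor, averaged 23.7 ± 7.13 FPKM in A-iSC, 20.85 ± 1.73 in P56-NSC, 0.584 ± 0.0482 in P0-NSC and 6.98 ± 0.299 in AST. Chst7, a chondroitin sulfotransferase, averaged 1.996 ± 0.185 FPKM in A-iSC, 3.34 ± 0.271 in P56-NSC, 1.46 ± 0.324 in P0-NSC and 13.5 ± 0.504 in AST.

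Of 9 tested genes of proteases that cleave lecticans and their inhibitor Timp3, A-iSC had 0 called higher and 6 lower than AST, P56-NSC 2 and 5, and P0-NSC 3 and 6, with medians of -0.86, -0.89 and -0.52, while 30.8%, 37% and 38.3% of all genes were called lower. Adamts5 passed the filter through AST, Adamts20 through P56-NSC and Mmp9 through P0-NSC, so nothing is read from these counts. Adamts4, a protease that cuts brevican and aggrecan, averaged 1.19 ± 0.668 FPKM in A-iSC, 38.9 ± 2.55 in P56-NSC, 1.32 ± 0.0153 in P0-NSC and 2.97 ± 1.10 in AST, so it was high in the group with the highest Bcan. The oligodendrocyte markers were high in that group as well, as given above, and their part in the Adamts4 level was not tested. Adamts1 averaged 11.4 ± 0.433 FPKM in A-iSC, 6.60 ± 0.222 in P56-NSC, 8.58 ± 1.59 in P0-NSC and 53.03 ± 10.03 in AST. Of 20 other proteoglycan core proteins, A-iSC had 2 called higher and 10 lower than AST, P56-NSC 9 and 10, and P0-NSC 11 and 9, with medians of -0.23, -0.055 and 0.46, beside 58.9%, 74.1% and 74.2% of all genes called either way. Dcn, Lum and Gpc2 passed the filter through P0-NSC, and Gpc5 and Spock3 through P56-NSC, so nothing is read from the counts of those groups. Fmod, a collagen-binding core protein, averaged 4.299 ± 0.7125 FPKM in A-iSC, 0.648 ± 0.103 in P56-NSC, 7.97 ± 0.821 in P0-NSC and 229 ± 9.99 in AST. The sum of fibroblast and mural cell markers was likewise highest in AST, through Acta2. Of the 10 markers, 6 were called higher and 3 lower in P0-NSC than in AST, beside 35.9% and 38.3% of all genes. Kcnj8, Dcn and Lum passed the filter through P0-NSC, so nothing is read from that count. The part of such cells in the Fmod level was not tested.

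Of 13 tested ligands and partners of Ptprz1 and receptors of proteoglycans, Ptn and Mdk included, A-iSC had 7 called higher and 2 lower than AST, P56-NSC 8 and 1, and P0-NSC 8 and 2, with medians of 0.36, 1.31 and 2.17, beside 28.1%, 37.1% and 35.9% of all genes called higher. Erbb3 passed the filter through P56-NSC and Rtn4rl2 through P0-NSC, so nothing is read from the counts of those groups. Cntn1, a neuronal and glial adhesion protein that Ptprz1 binds, averaged 3.19 ± 1.74 FPKM in A-iSC, 34.8 ± 3.01 in P56-NSC, 7.67 ± 0.973 in P0-NSC and 0.427 ± 0.0573 in AST. L1cam, a neuronal adhesion protein, averaged 0.203 ± 0.0477 FPKM in A-iSC, 1.88 ± 0.541 in P56-NSC, 20.7 ± 2.29 in P0-NSC and 0.147 ± 0.0521 in AST. The 12 neuronal markers summed to 22.2 to 25.8 FPKM in A-iSC, 197 to 246 in P56-NSC, 275 to 330 in P0-NSC and 57.1 to 76.35 in AST. Stmn2 carried most of the AST sum, with a mean of 53.8 FPKM in AST and 7.16 in A-iSC. Of the 12 markers, 5 were called higher and 3 lower in A-iSC than in AST, beside 28.1% and 30.8% of all genes. Some were near the floor in both groups, such as Rbfox3 (0.145 FPKM in A-iSC, 0.0268 in AST) and Snap25 (0.392 and 0.0912). Nothing is read from that count. The part of neurons in these levels was not tested. The bar plot of list counts gives all 9 lists.

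**Figure D5:**
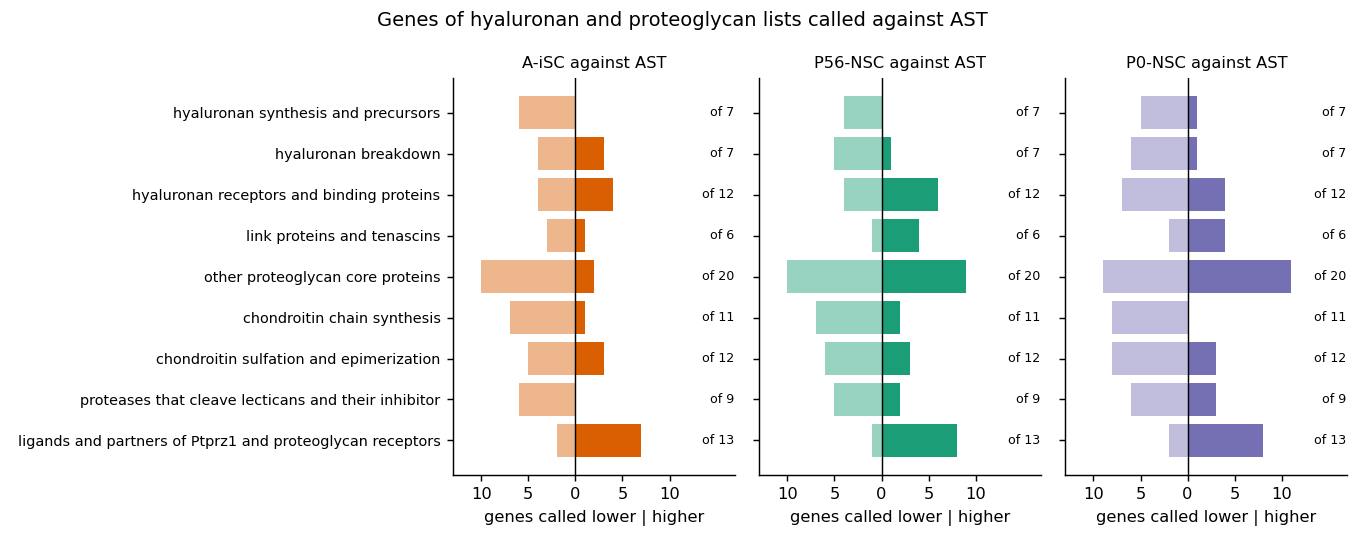
Number of genes called higher (right of 0, full colour) and lower (left of 0, pale) against AST by limma at an adjusted p below 0.05, for 9 lists of hyaluronan and proteoglycan genes in A-iSC, P56-NSC and P0-NSC; the number of genes tested stands at the right of each bar. In A-iSC, 0 genes of the synthesis list are called higher and 6 lower, and 7 of the list of Ptprz1 partners higher and 2 lower. Over all tested genes 28.1% are higher and 30.8% lower. Some lists hold genes that passed the filter through a single group, and bars that count their calls in that group are no test.

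Across the 12 libraries, the genes whose log2 levels ran most like each member were found by Pearson correlation, as a description with no test, over libraries that share 4 groups. The closest genes were Ndrg2 for Bcan (r = 0.996), Ctps2 for Ncan (0.974), Map3k9 for Vcan (0.988), Slc24a2 for Hapln1 (0.998), C1qtnf6 for Has2 (0.985), Shisa3 for Cd44 (0.998), Erbb4 for Ptprz1 (0.993) and Pdgfra for Cspg5 (0.998). Ndrg2 averaged 112 FPKM in A-iSC, 1095 in P56-NSC, 100.1 in P0-NSC and 6.08 in AST. Pdgfra, a marker of oligodendrocyte precursors, averaged 5.50 FPKM in A-iSC, 19.1 in P56-NSC, 8.34 in P0-NSC and 0.373 in AST. Among the members themselves, the closest pairs were Bcan and Cspg5 (r = 0.983) and Ptprz1 and Cspg5 (0.976), and the most opposite were Cd44 and Ptprz1 (-0.932) and Bcan and Has2 (-0.903). Correlations with the other tested members were between -0.79 and 0.648 for Ncan and between -0.454 and 0.289 for Vcan.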

How the data were processed

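Libraries of 12 mouse brain cell samples were made from 3 µg of RNA with an unstranded kit, per the labels' protocols. Bowtie (0.12.2), mm8 and mm9 are named in the submitters' processing notes, although 99.5% of the table's gene coordinates equal those of GENCODE M21 on GRCm38. The sources used here do not name the read counter. The deposited values are FPKM per gene, normalized by the authors. Multiplied by gene length they came out as whole reads (within 0.01) for 100% of values, and the total each library's FPKM implies was 0.744 to 1.2183 times its read sum, so the libraries had been scaled against each other.

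Groups come from the titles. Values were tested as log2(FPKM + 1), which understates changes of low genes, with limma 3.58.1 in R 4.3.3, in 1 fit of all 12 libraries without covariates, for 6 comparisons, with Benjamini-Hochberg adjustment over 15747 genes and a threshold of 0.05. The 441 entries with no gene name, 0.0957% to 0.156% of reads, stayed out of the tests. Replicates differed by more than counting noise in every pair (chi-square over degrees of freedom, 2.63 to 105). Sums, ratios and figures were made in Python 3.11.15 (numpy 2.4.6, pandas 2.3.3, scipy 1.17.1, matplotlib 3.10.9). The fit was checked on simulated data. The members and lists were chosen with earlier results of these data known. All members are named. List genes named are the other link proteins and synthases, the tenascins, Ptn, Mdk, and some of the 2 called genes of largest change per list, direction and comparison with 5 FPKM or more in the higher group.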

Additional observations from a re-analysis of the deposited data

How the results depend on the processing

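Each value was recomputed under 28 alternatives (other pseudocounts, filters and scalings, voom on recovered reads, other sets of libraries, each library left out). Of 1333 recomputed changes of single members, 1280 kept their direction and their side of the threshold, 28 lost a call, 8 gained one and 17 turned sign. In A-iSC against P0-NSC, Bcan was -0.18 and Ncan -0.30 after quantile normalization, and they were -0.065 and -0.067 after scaling by total reads. Bcan was also -0.055 with AST 2, A-iSC 1 and A-iSC 2 only, without AST 2 and A-iSC 3, and without A-iSC 3, -0.088 without P0-NSC 1 and -0.048 without P0-NSC 3 (-0.088 to 0.16 over all libraries left out). Ncan was -0.077, Has2 0.072 and Cspg5 0.037 with AST 1, AST 3 and A-iSC 3 only, and Ncan was -0.068 without A-iSC 1, -0.070 without P0-NSC 1 and -0.027 without P0-NSC 3 (-0.070 to 0.11 over all libraries left out). Vcan turned to 0.029 in A-iSC against P56-NSC after scaling by total reads, and to 0.16 in P56-NSC against AST with AST 2, A-iSC 1 and A-iSC 2 only. The cause was not tested. With Hapln1 counted, the 5 members called in A-iSC against P0-NSC became 3 when only those 2 groups were fitted. Fits with a sole A-iSC or AST library have no spread of their own for that group, so only their changes are given for single genes. Leaving out each library in turn gave 8189 to 9742 called genes and 7 to 7 members in A-iSC against AST, 10420 to 12229 and 7 to 8 in P56-NSC against AST, 10565 to 12275 and 7 to 8 in P0-NSC against AST, 8507 to 10565 and 8 to 8 in A-iSC against P56-NSC, 9301 to 11107 and 4 to 6 in A-iSC against P0-NSC, and 9655 to 11648 and 7 to 8 in P56-NSC against P0-NSC.

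Scaling by total reads moved the median change of all genes by 0.18 in A-iSC against AST, -0.28 in P56-NSC against AST, 0.24 in P0-NSC against AST, 0.45 in A-iSC against P56-NSC and -0.51 in P56-NSC against P0-NSC, so member values under it are relative to those shifts. Of 3024 list counts, 135 moved by more than 1.5 times. Whether replicate numbers pair the samples is not stated. Correlations of same-numbered deviations were -0.395 to 0.442, and no pair of groups had all above 0.1. Between A-iSC and AST they were -0.395, 0.342 and 0.442, and deviations in both groups ran with gene length, so this check cannot decide on pairing. With the replicate block, 9149 genes were called in A-iSC against AST, 11582 in P56-NSC against AST, 11633 in P0-NSC against AST, 9851 in A-iSC against P56-NSC, 10488 in A-iSC against P0-NSC and 10846 in P56-NSC against P0-NSC, and the counts of members did not change. Depth limits Acan, Has2 in P56-NSC and Hapln1 in AST, where few reads were counted.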
